A study of Mus musculus with 9 samples.

Results

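Pericytes are mural cells that wrap brain capillaries and share a basement membrane with the endothelium. Endothelial cells recruit them by secreting PDGF-B, which binds the PDGF receptor beta on the pericyte surface. Pericytes also receive Notch signals, set capillary tone and are needed for the blood-brain barrier to mature. The genes described here are 10 pericyte markers, Pdgfrb, Rgs5, Kcnj8, Abcc9, Vtn, Notch3, Anpep, Higd1b, Ndufa4l2 and Atp13a5, taken by symbol from a table of 57180 genes. All 10 were found once in the table, and all 10 passed the filter of a mean of at least 10 normalized counts that left 17036 genes to test.

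RNA was sequenced from whole hippocampus of 11-day-old mice of strain C57BL6. The cKO group (4 animals, 3 males and 1 female) had Slc38a3, which encodes the glutamine transporter SNAT3, knocked out in endothelial cells, and the WT group (5 animals, 1 male and 4 females) was wild type. The labels name neither the Cre driver nor the litters, nor say which alleles the WT animals carried. A normalized count is a gene's read count divided by the size factor of its library, and fold changes are on the log2(normalized count + 1) scale from a model with sex as a term, because sex was unevenly split. The depth was even, at 30803135 to 34034530 recovered reads per library.

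Slc38a3 was at 379.8, 405.4, 307.7 and 310.2 normalized counts in cKO replicates 1 to 4, and at 3392, 2033, 3514, 3363 and 1804 in WT replicates 1 to 5. The cKO libraries were all far below the WT libraries, among which replicates 2 and 5 stood lower than the others. On the log2 scale Slc38a3 fell by 2.99 (SE 0.221, adjusted p of 5.54e-05 by limma). Hippocampal markers were present in every library, with the dentate gene Prox1 at 5918 to 7122 in cKO and 6640 to 7188 in WT. The neuronal gene Snap25 lay wholly lower in cKO, at 32315 ± 937 over the cKO libraries and 36255 ± 1243 over the WT libraries (SD), with a log2 fold change of -0.13 (limma adjusted p = 0.256). Its direction was that of most pericyte markers, and any part of it in their values was not tested. The choroid plexus gene Ttr ran from 210.9 to 31055 in cKO and from 258.3 to 41329 in WT, so libraries of both groups differed widely in this neighbouring tissue. The pericyte markers themselves were all detected, from 43 recovered reads for the lowest value to 8632 for the highest. Because whole tissue was sequenced, fewer pericytes and less RNA per pericyte cannot be told apart.

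The sequences below are the 250 bases before the start of 3 members, on the strand of the gene, as given by RefSeq for build GRCm38.p6. They are shown because Rgs5, Atp13a5 and Abcc9 are the members whose difference between the genotypes had the smallest p. The table holds 7 of the 10 members. Capitals mark matches on either strand to TGGGAA (the RBPJ core, where Notch signals act on DNA), GTAAACA (FOX factors), ACGTG (the hypoxia response core), GGGCGG (the GC box) or TATAAA (the TATA box).

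Rgs5, chr1:169655251-169655500, plus strand: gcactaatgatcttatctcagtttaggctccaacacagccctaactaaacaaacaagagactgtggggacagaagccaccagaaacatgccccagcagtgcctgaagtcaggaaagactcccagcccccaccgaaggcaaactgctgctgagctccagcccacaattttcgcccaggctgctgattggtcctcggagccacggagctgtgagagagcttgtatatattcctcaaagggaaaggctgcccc
Atp13a5, chr16:29378733-29378982, minus strand: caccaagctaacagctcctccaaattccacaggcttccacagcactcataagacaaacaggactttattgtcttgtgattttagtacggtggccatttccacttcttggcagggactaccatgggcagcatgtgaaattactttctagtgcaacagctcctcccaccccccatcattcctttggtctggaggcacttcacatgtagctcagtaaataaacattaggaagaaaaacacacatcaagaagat
Abcc9, chr6:142702275-142702524, minus strand: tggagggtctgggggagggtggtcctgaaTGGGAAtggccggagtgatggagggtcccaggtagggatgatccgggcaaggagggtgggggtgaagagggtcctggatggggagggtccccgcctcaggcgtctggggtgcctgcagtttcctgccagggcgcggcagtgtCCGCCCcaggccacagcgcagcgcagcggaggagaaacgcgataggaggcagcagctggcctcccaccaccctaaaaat

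These 3 stretches differ in base composition. That of Abcc9 is 66.8% G and C with 12 CpG dinucleotides, that of Rgs5 is 53.6% with 4, and that of Atp13a5 is 44.8% with 1. None of the 5 motifs matched in Rgs5 or Atp13a5, and Abcc9 held a GC box 79 to 74 bases and an RBPJ core 221 to 216 bases before its start. Among the 7 members with a sequence, the GC box matched in 3 (32.7% of 32851 promoters of the same length), the RBPJ core in 2 (21.6%), the hypoxia core in 1 (16.6%), the TATA box in 1 (12.4%) and the FOX motif in 0 (3.17%). The hypoxia core match and 1 of the 3 members with a GC box come from Notch3. For that gene alone, the bases after the start were not found in its GENCODE M21 transcripts. A match describes letters and not a bound site.

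Levels per kilobase of exon put the members in order, with exon lengths taken by gene ID from GENCODE M21. In cKO and WT, Rgs5 was the highest, with 1510 ± 142 normalized counts per kilobase over the 4 cKO libraries and 1789 ± 55.0 over the 5 WT libraries (mean ± SD, as for all levels below, while ± beside a log2 fold change or difference is its SE). Vtn followed at 807.9 ± 56.7 in cKO and 786.6 ± 69.0 in WT, and Pdgfrb at 226.5 ± 16.3 in cKO and 242.5 ± 8.33 in WT. Next came Notch3, at 140.8 ± 11.4 per kilobase in cKO and 141.8 ± 12.7 in WT, and Atp13a5, at 91.7 ± 1.84 in cKO and 105.7 ± 5.87 in WT. These 5 genes did not overlap with their neighbours in the order over the 5 WT libraries. Higd1b, Ndufa4l2 and Abcc9, at 77.6, 73.2 and 73.0 per kilobase in WT, overlapped with each neighbour among themselves, and so did Kcnj8 and Anpep, at 60.7 and 44.3, while Abcc9 and Kcnj8 did not.

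**Figure D1:**
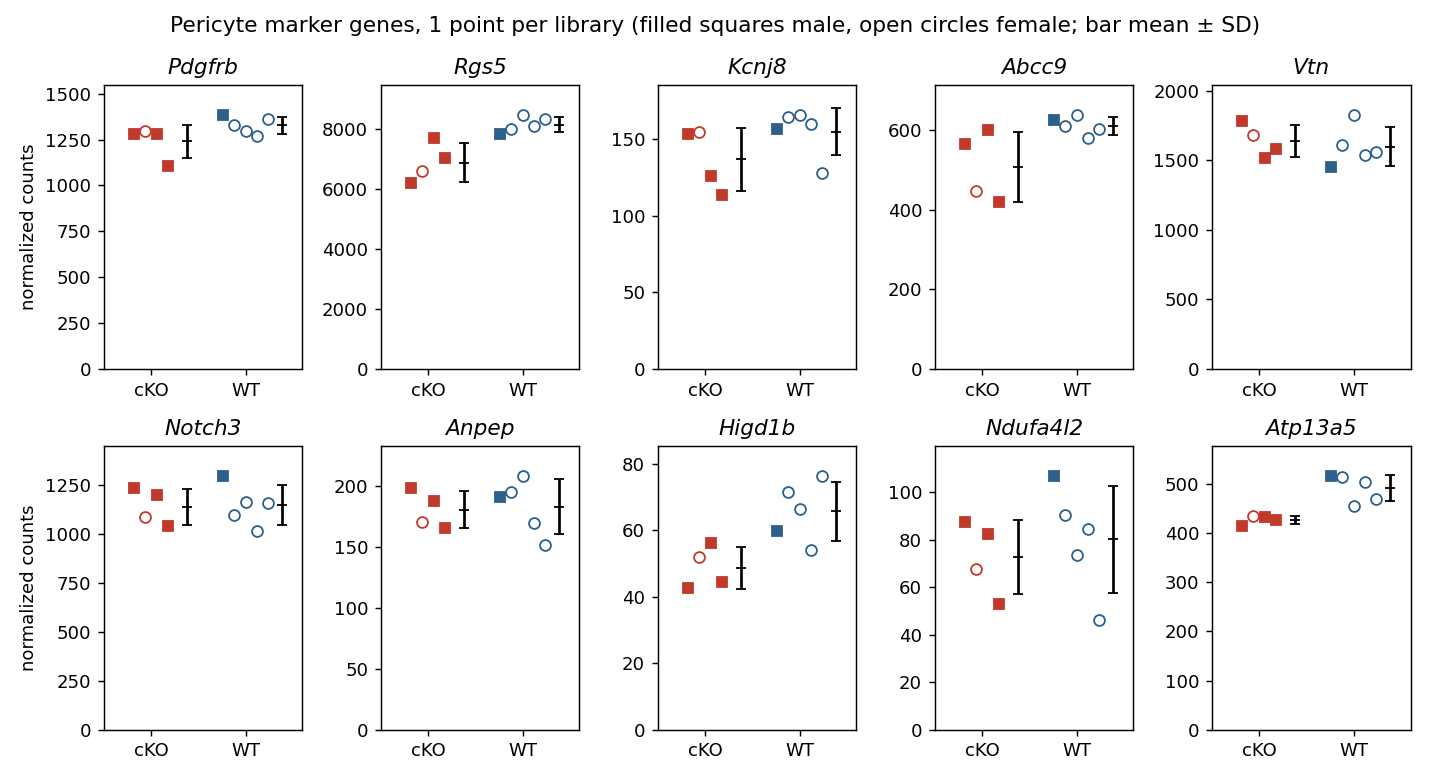
Normalized counts of each pericyte marker gene (y axis, from 0) in the 4 cKO and 5 WT libraries (x axis), with filled squares for males, open circles for females and a bar for the mean ± SD. For Rgs5 and Atp13a5 every cKO point lies below every WT point, and for the other 8 genes the groups overlap.

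Pericyte markers were compared between hippocampus with and without endothelial Slc38a3. None of the 10 passed (limma-trend, Benjamini-Hochberg adjusted p under 0.05 over all genes), where 0.346% of the 17036 genes passed. With edgeR on the recovered reads 0 passed and with DESeq2 1 passed, Rgs5. At an unadjusted p under 0.05 there were 3 of 10, Rgs5, Abcc9 and Atp13a5, all lower in cKO, beside 11.3% of all genes in either direction. With each library left out, that limma count ran from 1, without cKO replicate 2, to 4, without cKO replicate 3 or WT replicate 4. The share of all genes was not taken for those fits. The cKO libraries lay wholly below the WT libraries for 2 of 10, Rgs5 and Atp13a5, beside 3.72% of all genes, and wholly above for none, beside 2.58% of all genes. Of the 10 fitted log2 fold changes 9 were below 0, with a median of -0.17, while 51.2% of all genes tested were below 0 with a median of -0.0034. That median was -0.08 without WT replicate 1, the single WT male. Without WT replicates 2 and 5, in which Slc38a3 was lower, 0 of 10 passed and the median was -0.20. A p that misses the threshold does not show that the genotypes are alike.

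Rgs5 encodes a regulator of G-protein signalling that shortens the signal of receptors acting through Gi and Gq, and it is also made by smooth muscle cells. It lies on chromosome 1, at 169483069 to 169523382 in GRCm39. Rgs5 was at 6183, 6574, 7688 and 7016 normalized counts in cKO replicates 1 to 4, and at 7820, 7993, 8442, 8084 and 8321 in WT replicates 1 to 5. All 4 cKO libraries were below all 5 WT libraries, with cKO replicate 3 only slightly under the lowest WT value, and the cKO libraries were more spread. Rgs5 averaged 6865 ± 645.5 over the cKO libraries and 8132 ± 250.2 over the WT libraries, 15.6% lower in cKO. The log2 fold change was -0.25 ± 0.0643 (SE, limma unadjusted p = 0.00181, adjusted p = 0.161).

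Whether Rgs5 passed depended on the model and on 1 library. The adjusted p was 0.0252 with DESeq2, 0.0352 in limma-trend without the sex term and 0.0411 without cKO replicate 3, and over all alternatives it ran from 0.0252 to 0.910. Within females, 1 cKO against 4 WT, the limma log2 fold change was -0.32 (adjusted p = 0.0667), and within males, 3 cKO against 1 WT, it was -0.17 (adjusted p = 0.910). Each within-sex value rests on 1 library of a genotype, assumed to vary like the others. The log2 fold change lay between -0.32 and -0.17 in all 20 alternatives. These are not all separate checks. The fit without WT replicate 1 gives the same estimate as females alone, and that without cKO replicate 2 the same as males alone.

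Atp13a5 encodes a P5-type transport ATPase and is used as a marker of brain pericytes. It lies on chromosome 16, at 29050602 to 29197550. Atp13a5 was at 415.6, 434.8, 432.5 and 426.2 normalized counts in cKO replicates 1 to 4, and at 516.6, 514.1, 456.7, 505.1 and 469.9 in WT replicates 1 to 5. The groups did not overlap, and the cKO libraries were close together, with a coefficient of variation of 2.01% in cKO against 5.56% in WT. The means were 427.3 ± 8.57 in cKO and 492.5 ± 27.4 in WT, 13.2% lower in cKO. The log2 fold change was -0.22 ± 0.0718 (SE, limma unadjusted p = 0.00900, adjusted p = 0.269), and its adjusted p was at least 0.115 under every alternative. Its close relative Atp13a4 did not pass and had a fold change above 0, at 477.5 ± 45.0 in cKO and 399.8 ± 34.0 in WT (log2 fold change 0.30 ± 0.0953, limma adjusted p = 0.251).

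Abcc9 and Kcnj8 encode the subunits of the vascular ATP-sensitive potassium channel, whose opening relaxes mural cells, Abcc9 the sulfonylurea receptor and Kcnj8 the pore. They are neighbours on chromosome 6, Kcnj8 at 142510562 to 142517340 and Abcc9 at 142533587 to 142648041, with 16246 bases between them. Abcc9 was at 565.8, 446.5, 600.8 and 418.7 normalized counts in cKO replicates 1 to 4, and at 625.3, 609.7, 637.6, 580.4 and 602.2 in WT replicates 1 to 5. cKO replicates 2 and 4 were far below every WT library, while cKO replicate 3 lay inside the WT range. The means were 508.0 ± 88.9 in cKO and 611.0 ± 22.0 in WT, 16.9% lower in cKO. The log2 fold change of -0.35 ± 0.109 was the largest among the members in this fit (SE, limma unadjusted p = 0.00607, adjusted p = 0.240), and the smallest adjusted p among the alternatives was 0.103. That rank did not hold throughout. Without cKO replicate 2 the fold change of Abcc9 was -0.26 and that of Ndufa4l2 -0.55. Without the sex term that of Abcc9 was -0.28 and that of Higd1b -0.42.

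Kcnj8 was at 153.1, 154.7, 125.8 and 113.2 normalized counts in cKO replicates 1 to 4, and at 156.6, 164.1, 165.3, 159.7 and 128.0 in WT replicates 1 to 5. The groups overlapped only through WT replicate 5, which stood below the other WT libraries. The log2 fold change was -0.12 ± 0.143 (limma adjusted p = 0.781), and it was 0.01 without WT replicate 1, -0.07 without cKO replicate 4 and -0.27 without cKO replicate 2. The ratio of Kcnj8 to Abcc9 normalized counts was 0.274 ± 0.0562 in cKO and 0.253 ± 0.0247 in WT, a difference smaller than the spread in either group. The subunits that make up the channel of neurons and beta cells, Kcnj11 and Abcc8, were among 14 partners and relatives of the members, of which none passed. For 3 of the 14 every cKO library was below every WT library, beside 3.72% of all genes. These were Pdgfra, the receptor gene of oligodendrocyte precursors, at 4656 ± 209.6 in cKO and 5083 ± 168 in WT (limma adjusted p = 0.161), Rgs4, at 6848 ± 501 in cKO and 8149 ± 495 in WT (limma adjusted p = 0.196), and Higd1a.

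Pdgfrb, which encodes the pericyte receptor for PDGF-B, was at 1280, 1295, 1281 and 1107 normalized counts in cKO replicates 1 to 4, and at 1382, 1328, 1299, 1270 and 1362 in WT replicates 1 to 5. It lies on chromosome 18, at 61178221 to 61218133. Only cKO replicate 4 stood clearly apart, and the log2 fold change was -0.10 ± 0.0638 (limma adjusted p = 0.589). It was -0.02 without WT replicate 1, -0.06 without cKO replicate 4 and -0.18 without cKO replicate 2. Its endothelial ligand Pdgfb averaged 1578 ± 55.9 in cKO and 1731 ± 92.2 in WT (log2 fold change -0.14 ± 0.0566, limma adjusted p = 0.383). The ratio of Pdgfrb to the endothelial marker Pecam1 was 1.74 ± 0.128 in cKO and 1.66 ± 0.125 in WT, and that of Rgs5 to Pecam1 was 9.60 ± 0.601 in cKO and 10.2 ± 0.695 in WT. Both ratios differed by less than the SD of either group. Pecam1 itself averaged 714 ± 28.3 in cKO and 801.7 ± 49.1 in WT (log2 fold change -0.17 ± 0.0679, limma adjusted p = 0.366). The ratios therefore do not set the members against a fixed level.

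Notch3, the Notch receptor of mural cells, lies on chromosome 17, at 32339793 to 32385826. It ranged from 1039 to 1235 normalized counts in cKO and from 1015 to 1296 in WT, and its means of 1139 ± 91.9 in cKO and 1147 ± 103 in WT differed by less than either SD (log2 fold change -0.10 ± 0.0730, limma adjusted p = 0.648). The fold change was -0.03 without WT replicate 1, -0.06 without cKO replicate 4, -0.17 without cKO replicate 2 and -0.0086 without the sex term. Its span overlaps the noncoding gene Gm17276, at means of 22.5 in cKO and 18.6 in WT. The Notch ligand gene Jag1 averaged 315.5 ± 29.4 in cKO and 362.2 ± 23.9 in WT (log2 fold change -0.31 ± 0.0816, limma adjusted p = 0.168).

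Vtn, which encodes the matrix protein vitronectin, was the only member with a fitted fold change above 0. It lies on chromosome 11, at 78389916 to 78393150. Vtn was at 1780, 1680, 1516 and 1584 normalized counts in cKO replicates 1 to 4, and at 1449, 1613, 1824, 1537 and 1561 in WT replicates 1 to 5. The groups lay on top of each other, with the lowest and the highest library both WT. Its log2 fold change was 0.10 ± 0.0718 (limma adjusted p = 0.622), and it was above 0 in all 20 alternatives, from 0.04 without the sex term and without WT replicate 1 to 0.16 without cKO replicate 2.

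Anpep encodes aminopeptidase N, a peptidase on the pericyte surface, and lies on chromosome 7, at 79471550 to 79510807. It ranged from 166.0 to 198.9 normalized counts in cKO and from 151.6 to 208.3 in WT (log2 fold change -0.07 ± 0.127, limma adjusted p = 0.870). Over the 20 alternatives the fold change of Anpep lay between -0.11, without WT replicate 5, and -0.01, without the sex term.

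Higd1b and Ndufa4l2 encode small mitochondrial proteins of families linked to hypoxia, and they were the lowest members by count. Higd1b (chromosome 11, 102726674 to 102728866) was at 42.8, 51.9, 56.1 and 44.3 normalized counts in cKO replicates 1 to 4, and at 59.8, 71.7, 66.5, 54.2 and 76.4 in WT replicates 1 to 5. Only cKO replicate 3 and WT replicate 4 crossed. The means were 48.8 ± 6.32 in cKO and 65.7 ± 8.89 in WT, 25.8% lower in cKO, the largest difference of means among the members. With the sex term the log2 fold change was -0.34 ± 0.182 (limma adjusted p = 0.497), and counting error alone gives a coefficient of variation of 12.5% at this depth, beside 13.5% measured in WT.

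Ndufa4l2 (chromosome 10, 127350835 to 127353023) ranged from 52.8 to 87.5 normalized counts in cKO and from 46.2 to 106.7 in WT (log2 fold change -0.31 ± 0.251, limma adjusted p = 0.679). That value was -0.08 without WT replicate 1, -0.19 without cKO replicate 4 and -0.55 without cKO replicate 2. Its coefficient of variation in WT was 28.0%, against a median of 13.9% over 726 genes of like level. The end of its span overlaps that of Shmt2, which was at means of 1046 in cKO and 892.5 in WT, and without a stated strand setting the reads of that shared stretch cannot be assigned to either gene.

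**Figure D2:**
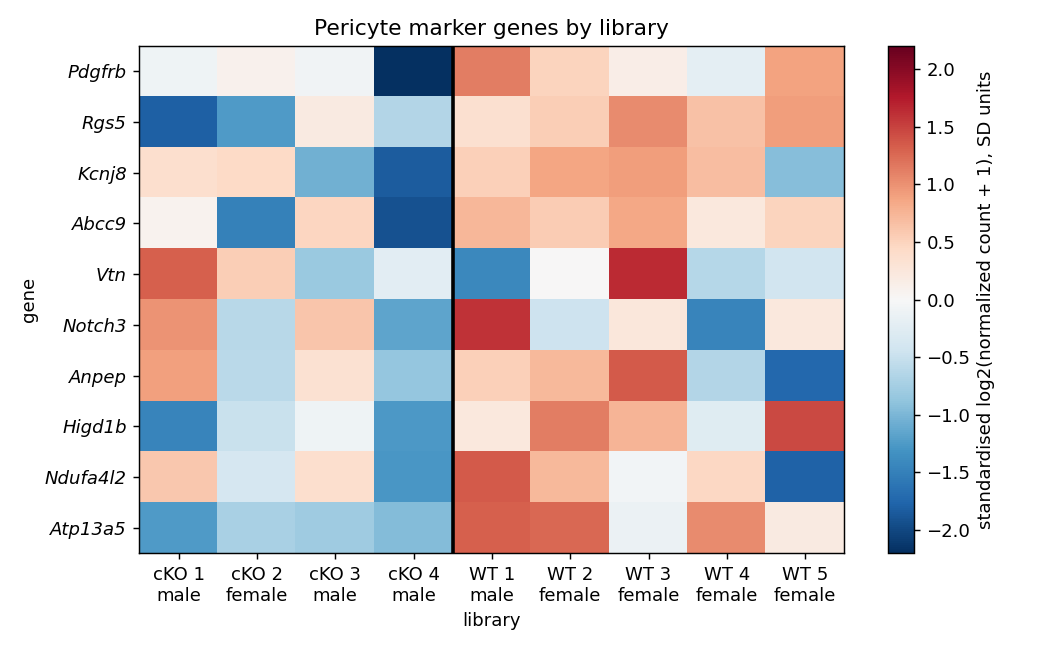
Each pericyte marker gene (rows) in each library (columns, cKO left of the line and WT right of it), coloured by its log2 value standardised over the 9 libraries, in SD units. cKO replicate 4 is below the WT mean for all 10 genes, a count not set beside all genes, and Vtn does not follow the others.

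Summed over the 10 genes, the libraries held 11941 to 13167 normalized counts in cKO and 13460 to 14335 in WT. Without Rgs5, the most abundant member, the sums were 4951 to 5758 in cKO and 5376 to 5893 in WT and overlapped. cKO replicate 4 was below every WT library for 6 of the 10 genes, cKO replicates 1 and 2 for 4 each and cKO replicate 3 for 3. The highest library was a WT library for all 10 genes, WT replicate 3 for 5, WT replicate 1 for 4 and WT replicate 5 for 1. The lowest was cKO replicate 1 for 3, cKO replicate 4 for 3, WT replicate 5 for 2 and WT replicates 1 and 4 for 1 each. Across the 9 libraries the Pearson correlation of each gene with the mean of the other 9 members ran from -0.0972 for Vtn to 0.850 for Abcc9. These values are a description, and they include the difference between the genotypes. The counts by library were not set beside those over all genes, so they do not show whether the members stand out.

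The genes outside the list whose log2 values most resembled the mean standardised level of the members, over 9 libraries and among 13903 genes with a mean of at least 50, were Wars1, the tryptophanyl-tRNA synthetase gene (Pearson r = 0.942, Spearman rho = 0.9), Sh3bgrl3 (r = 0.941, rho = 0.7), Lingo1 (r = 0.930, rho = 0.8), Pmvk, a kinase of the mevalonate pathway (r = 0.928, rho = 0.983), and Panx2, a pannexin channel gene (r = 0.927, rho = 0.65). Without the 2 libraries farthest from the median, r over the other 7 was 0.824 to 0.945. These are the top values of a long ranking over few libraries, and none of the 5 genes passed for cKO against WT.

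Other vascular lists were set beside the members. Of 19 further mural and pericyte genes none passed, with 12 log2 fold changes below 0 and a median of -0.08. At a limma unadjusted p under 0.05 there was 1 of the 19, above 0, beside 11.3% of all genes in either direction. Cspg4, which encodes the proteoglycan NG2, was at 1458 ± 105.7 normalized counts in cKO and 1560 ± 112.8 in WT (limma adjusted p = 0.481), and the transporter gene Slc6a20a was at 462.3 ± 115.8 in cKO and 306.1 ± 59.2 in WT (limma adjusted p = 0.313). Of 26 genes of the signals between endothelium and pericytes none passed, 13 were below 0 and 13 above, and the median was -0.0037. The limma unadjusted p was under 0.05 for 5 of the 26, 3 below 0 and 2 above. The nearest to passing was Eng, which encodes the TGF-beta coreceptor endoglin, at 1013 ± 12.9 in cKO and 1188 ± 48.7 in WT with no overlap (log2 fold change -0.24 ± 0.0526, limma adjusted p = 0.0821). The other gene of this list without overlap was Cdh2, the N-cadherin gene, higher in every cKO library, at 4929 ± 105.5 in cKO and 4738 ± 74.6 in WT (limma adjusted p = 0.560). Thus 1 of the 26 lay wholly lower in cKO, beside 3.72% of all genes, and 1 wholly higher, beside 2.58%. Of 14 basement membrane genes none passed, with a median of -0.05 and Nid1 at 1737 ± 32.1 in cKO and 1944 ± 71.8 in WT (limma adjusted p = 0.198). The limma unadjusted p was under 0.05 for 4 of these 14, all below 0.

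Of 22 endothelial genes, Flt1, a VEGF receptor gene, fell and 21 did not pass. Flt1 averaged 1233 ± 86.3 in cKO and 1546 ± 75.9 in WT (log2 fold change -0.34 ± 0.0640, limma adjusted p = 0.0417). Of the 22, 17 log2 fold changes were below 0 and the median was -0.09. The limma unadjusted p was under 0.05 for 5 of the 22, all below 0, beside 11.3% of all genes in either direction. For 5 of the 22, Flt1, Kdr, Adgrl4, Slc16a1 and Bsg, every cKO library was below every WT library, beside 3.72% of all genes. The summed level was 30100 to 32625 in cKO and 33141 to 35962 in WT, and none of the 22 was at 0. Bsg alone made up a large part of this sum, at 12952 ± 388 in cKO and 13938 ± 637 in WT. The sum without Bsg was not taken. The defining endothelial markers Cldn5, Cdh5, Esam, Emcn and Pecam1 overlapped between the groups. Their part in the result for the pericyte genes was not tested.

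For genes of smooth muscle and of the meninges most fitted log2 fold changes were above 0. Of 14 contractile genes tested none passed, 11 were above 0 and the median log2 fold change was 0.39. At a limma unadjusted p under 0.05 there were 5 of the 14, all above 0, beside 11.3% of all genes in either direction. Acta2, the smooth muscle actin gene, had means of 489.1 ± 157.4 over the cKO and 402.3 ± 194.5 over the WT libraries (log2 fold change 0.73 ± 0.280, limma adjusted p = 0.347). Pln had the smallest p of the list at low counts, 16.25 ± 8.48 in cKO and 10.15 ± 4.48 in WT (log2 fold change 1.31 ± 0.339, limma adjusted p = 0.161). All 14 overlapped between the groups. Over the 15 genes of this list the sums were 2472 to 3265 in cKO and 2290 to 3719 in WT. Of 15 meningeal fibroblast genes none passed, 12 were above 0, the median was 0.36 and the sums were 11484 to 13811 in cKO and 9047 to 13570 in WT. The limma unadjusted p was under 0.05 for 7 of these 15, 6 above 0 and 1 below. Of all the list medians, only that of the pericyte members was also taken with libraries left out. With sex as a term, the cKO males were set against WT replicate 1 alone, the single WT male. The ratio of Rgs5 to Acta2 was 33.4 in that library and 11.7 to 28.7 in the other WT libraries. How far the smooth muscle and meningeal medians rest on WT replicate 1 was not tested. Of the meningeal genes, Bgn was among the 3 below 0, at 1049 ± 67.6 in cKO and 1295 ± 77.8 in WT (limma adjusted p = 0.128), while Col1a1 had means of 1901 ± 181 in cKO and 1425 ± 260.5 in WT (limma adjusted p = 0.129). No gene of either list was at 0, and Acta2, Myh11, Tagln and Cnn1 and Col1a1, Col1a2, Dcn and Lum were present in all libraries. Rgs5 and Notch3 are made by smooth muscle as well as by pericytes, and the part of these cells in their values was not tested.

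**Figure D3:**
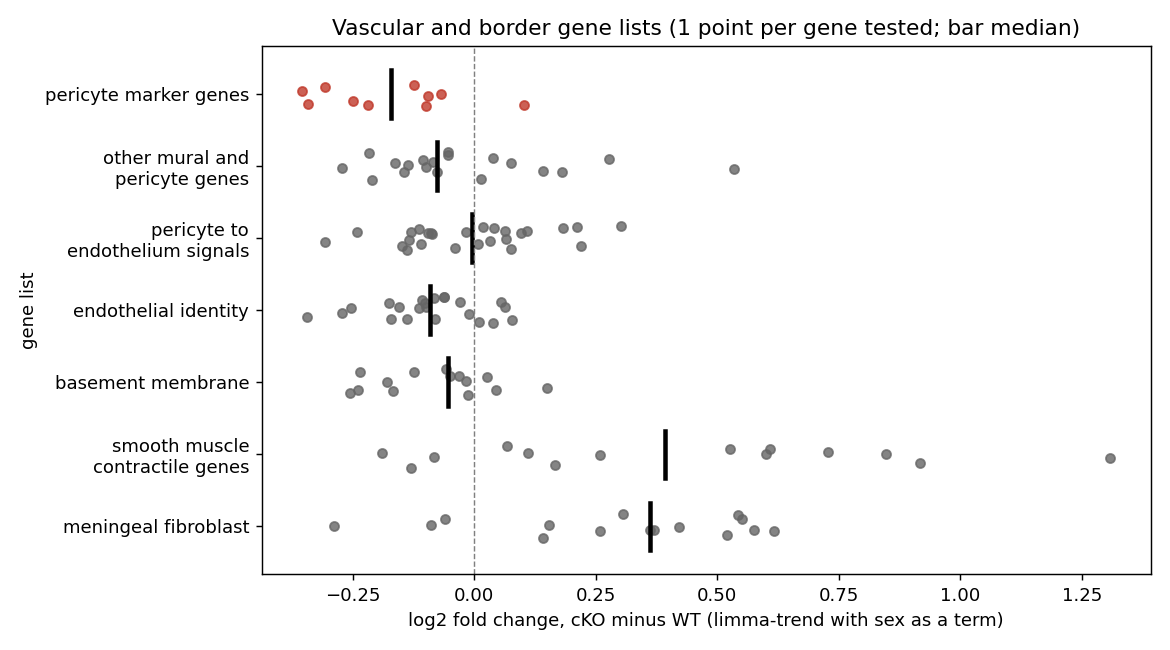
Log2 fold change of cKO over WT (x axis, limma-trend with sex as a term) for each gene tested in 7 lists (y axis), with a bar for the median of each list. The pericyte markers lie mostly below 0 with a median of -0.17, while the smooth muscle and meningeal lists have medians of 0.39 and 0.36. Only the pericyte median was also taken with libraries left out, so how far the others rest on WT replicate 1, the single WT male, was not tested.

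Sex was examined in the same fit, since it was uneven between the genotypes. None of the 10 members passed for males against females (limma-trend, adjusted p under 0.05), where 0.0528% of all genes did, with 0 of 10 by edgeR and DESeq2 as well. At an unadjusted p under 0.05 there was 1, Notch3, beside 6.73% of all genes. Notch3 averaged 1192 normalized counts in 4 males and 1105 in 5 females (log2 difference, male minus female, 0.16 ± 0.0730, limma unadjusted p = 0.0476, adjusted p = 0.739). The values of Vtn were 1582 in males and 1643 in females (adjusted p = 0.781), and those of Ndufa4l2 were 82.3 in males and 72.4 in females (adjusted p = 0.799), by limma. The difference between the genotypes was not found to depend on sex for any of the 10 (limma interaction adjusted p of at least 0.733), where 0.00587% of all genes passed, and that test rests on 1 cKO female and 1 WT male.

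**Figure D4:**
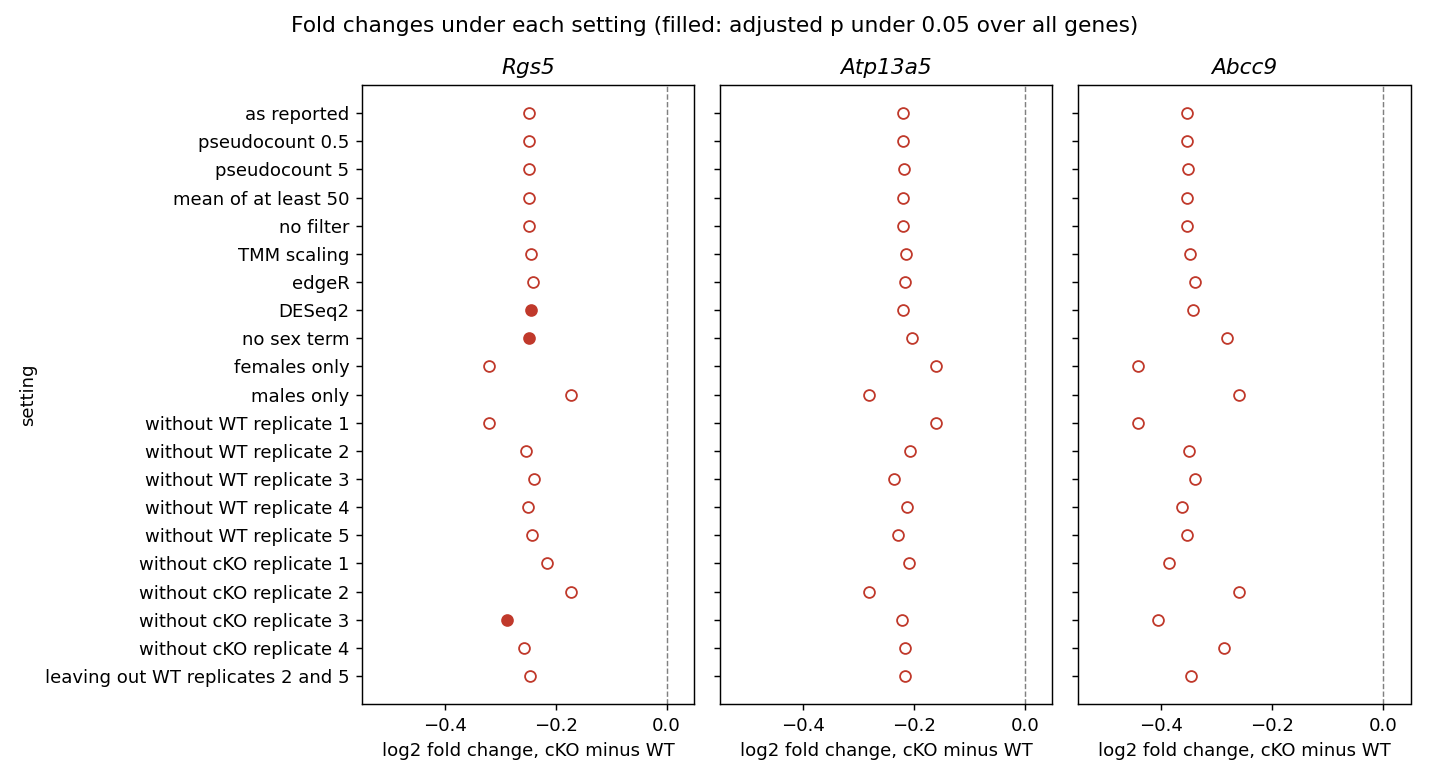
Log2 fold change of cKO over WT (x axis) of Rgs5, Atp13a5 and Abcc9 under each setting (y axis), with filled points where the adjusted p over all genes was under 0.05. All points lie below 0, and the 3 filled ones are those of Rgs5 with DESeq2, without the sex term and without cKO replicate 3.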

How the data were processed

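Libraries were made together with a directional kit from total RNA of hippocampus, per the labels' protocols. The submitters' processing notes list GRCm39 and 4 tools, namely STAR 2.7.10b, FastQC 0.12.1, cutadapt 4.4 and DESeq2 1.41.8. Which counter, annotation and strand setting they used is not stated there. The authors deposited normalized counts, a signal per gene and library. In them 1 read is worth 0.943 to 1.08, as gene counts give after division by a size factor, and dividing by this step returned whole reads (tolerance 0.1 read) for 100% of values. The step is so near 1 in cKO replicate 1 and in WT replicates 1 and 4 that low values do not show it. Chi-square per gene between libraries of one group was 3.62 to 12.9, so no library was taken for a copy of another.

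Genotypes were compared by limma-trend, run in R 4.3.3 with limma 3.58.1, with terms for sex and genotype, on the log2 of the normalized count plus 1. It covered 17036 genes whose mean reached 10 or more, and Benjamini-Hochberg adjustment was over all of them. The pseudocount understates changes of low genes. Alternatives were edgeR 4.0.16 and DESeq2 1.42.0 on recovered reads, other pseudocounts, filters and scaling, no sex term, each sex alone and each library left out. Fits were tested on simulated counts, with changes larger than those fitted for the members and with no sex effect. That test does not show how changes of the members' size fare. Replicates were numbered by record order, which pairs no samples, and p-values measure only the spread between these samples, since litters are unknown. Motifs were searched in RefSeq promoters of GRCm38.p6, a different build from the table's.

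The members and lists were chosen with earlier results of these data known. Named were all members, the listed genes that passed and the 5 genes of most like pattern. Of the 3 genes of smallest p in each list some were named, while others, such as Col3a1, Hspg2 and Lama4, were left out. Defining cell type markers, ligands or subunits are named as such. Higd1a, Slc16a1, Bsg and Cdh2 were named after their values were seen, to complete small counts. Tables and figures were made with matplotlib 3.10.9, numpy 2.4.6 and pandas 2.3.3 in Python 3.11.15.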

Additional observations from a re-analysis of the deposited data

Results flagged for a closer look

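In cKO replicate 4, Pdgfrb was at 1107 normalized counts, apart from the other 3 cKO libraries at 1280 to 1295. In WT replicate 5, Kcnj8 was at 128.0 normalized counts, apart from the other 4 WT libraries at 156.6 to 165.3. In each case the gap between that library and the nearest of its group took up most of the range of the group, by Dixon's rule at the 95% level. These were 2 of 20 groups examined (10 genes in cKO and in WT), and chance places a library apart in about 1 of 20. Pdgfrb had a log2 fold change of -0.10 with all libraries and -0.06 without cKO replicate 4 (limma adjusted p = 0.639), and that of Kcnj8 was -0.17 without WT replicate 5 (limma adjusted p = 0.7).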

How the results depend on the processing

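Other pseudocounts, other filters, TMM scaling and edgeR gave 53 to 60 genes of all for the genotype (59 as reported) and 0 pericyte genes. DESeq2 called 200 genes and 1 pericyte gene, and limma without the sex term called 216 and 1, each time Rgs5. Females only gave 11 genes of all, males only 3, and both gave 0 pericyte genes. Leaving out each library in turn gave 10 to 65 genes of all, 0 to 1 pericyte genes and 2 to 5 pericyte genes that do not overlap. The 10 genes came without cKO replicate 2, and the count was 28 without cKO replicate 1, and 21, 29 and 30 in turn when WT replicate 1, 2 or 5 was left out. The 5 were Pdgfrb, Rgs5, Abcc9, Higd1b and Atp13a5, without WT replicate 4, and without cKO replicate 3 there were 4, all of these but Pdgfrb. Of all genes tested, 4.53% and 5.06% lay wholly lower in cKO in those 2 sets of libraries, and 4.30% to 6.69% over all 9 sets, against 3.72% with all libraries. The median log2 fold change of the pericyte genes was -0.0774 within females, and -0.2199 to -0.0774 with each library left out, lowest without cKO replicate 2 and highest without WT replicate 1. Leaving out WT replicates 2 and 5, an alternative chosen after seeing the data, gave 15 genes, 0 pericyte genes and a median of -0.20. For sex, DESeq2 called 24 genes in place of 9, and leaving out each library gave 9 to 16, with 0 pericyte genes throughout. For the interaction of sex and genotype, 1 gene became 919 with no filter on low values, 7 with DESeq2 and 0 without WT replicates 2 and 5, with 0 pericyte genes each time. The cause of these moves was not tested. The interaction could not be fitted without cKO replicate 2 or WT replicate 1, the sole female of cKO and the sole male of WT. DESeq2 gave no adjusted p for Higd1b. Kcnj8 was above 0 within females and, with the same estimate, without WT replicate 1. No other member changed the sign of its fold change in the 20 alternatives. Counting error was largest for Higd1b and Ndufa4l2, with coefficients of variation of 12.5% and 11.2%. Those measured in WT were 13.5% and 28.0%, so the spread of Ndufa4l2 was well beyond counting error.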
